A study of Mus musculus with 9 samples.

Results

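Opn4, Eomes, Tbx20, Spp1, Kcng4 and Igf1 mark the ganglion cell types that best outlive a crush of the optic nerve, and these 6 genes were followed through 9 RNA-seq libraries of cells picked as retinal ganglion cells. They were taken by gene name from a table of 50764 genes, in which each of the 6 names occurs once. Eomes, Spp1, Kcng4 and Igf1 had enough counts to be tested across libraries, and Opn4 and Tbx20 did not. The cells came from adult male wild-type (WT) mice in 3 groups of 3 libraries, each group having received 1.5 µL of an AAV2 virus into the vitreous. The virus carried Olig2 in the Olig2 group, Olig3 in the Olig3 group and only green fluorescent protein (GFP) in the GFP group, and every group, GFP included, had the nerve crushed (ONC), with 14 days given for both the virus and the crush. Cells were held on beads against CD90.2 (Thy1, a surface protein) and GFP-positive ones were picked by hand, so a library is a pool. The labels give pools of 10 to 15, 15 to 20 or 10 to 20 cells depending on the passage. The labels do not say that libraries of a group came from separate mice, so every p-value here measures spread among libraries only, and that spread may be technical. In such pools, fewer cells of a type and less RNA per cell cannot be told apart.

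Retinal ganglion cells carry the output of the eye to the brain, and most die within weeks of an optic nerve crush. Intrinsically photosensitive ganglion cells, which use the photopigment melanopsin, and alpha ganglion cells, which have large bodies and fast axons, survive in larger proportion than most other types in mice. The delivered proteins, Olig2 and Olig3, belong to the basic helix-loop-helix class of transcription factors, which binds a short DNA word called the E-box, and both are known from neural progenitors.

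Because the delivered factors belong to the E-box binding class, the start regions of Opn4, Eomes, Kcng4 and Igf1 are shown, as RefSeq gives them on build GRCm38.p6. Each runs from 250 bases before to 50 bases after the annotated start, 5′ to 3′ on the strand of the gene, with every E-box word CANNTG in capitals.
Opn4 promoter, chr14:34600093-34600392, minus strand: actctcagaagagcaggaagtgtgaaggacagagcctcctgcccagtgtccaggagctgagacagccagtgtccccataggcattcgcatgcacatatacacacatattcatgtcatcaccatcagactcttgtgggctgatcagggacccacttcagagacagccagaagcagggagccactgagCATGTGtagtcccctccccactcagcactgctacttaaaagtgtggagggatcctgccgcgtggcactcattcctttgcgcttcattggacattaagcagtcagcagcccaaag
Eomes promoter, chr9:118477939-118478238, plus strand: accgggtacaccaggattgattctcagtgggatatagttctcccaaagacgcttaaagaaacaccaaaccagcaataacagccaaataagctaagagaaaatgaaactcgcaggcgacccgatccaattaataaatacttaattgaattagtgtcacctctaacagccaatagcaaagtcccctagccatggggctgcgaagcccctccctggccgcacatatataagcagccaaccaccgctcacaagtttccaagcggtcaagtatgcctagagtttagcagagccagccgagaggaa
Kcng4 promoter, chr8:119635631-119635930, minus strand: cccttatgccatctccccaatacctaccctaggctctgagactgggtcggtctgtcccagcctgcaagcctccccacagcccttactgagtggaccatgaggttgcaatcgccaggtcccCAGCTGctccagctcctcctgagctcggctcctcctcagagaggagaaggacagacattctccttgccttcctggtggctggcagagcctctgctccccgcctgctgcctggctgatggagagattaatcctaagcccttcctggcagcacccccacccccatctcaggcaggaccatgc
Igf1 promoter, chr10:87860861-87861160, plus strand: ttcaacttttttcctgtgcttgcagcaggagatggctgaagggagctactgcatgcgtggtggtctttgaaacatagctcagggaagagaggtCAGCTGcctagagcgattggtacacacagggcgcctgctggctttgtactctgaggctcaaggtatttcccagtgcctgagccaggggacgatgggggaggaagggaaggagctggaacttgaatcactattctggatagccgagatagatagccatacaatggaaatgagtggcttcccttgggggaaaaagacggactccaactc
The word reads the same as a pattern on either strand, so 1 search covered both. It occurred once in the windows of Opn4 (CATGTG), Kcng4 (CAGCTG) and Igf1 (CAGCTG), and once in the first of the windows listed for Spp1 (CAGGTG). No CANNTG stood in the window of Eomes or of Tbx20. Of 32851 promoters of the same length, 72.3% held at least 1 CANNTG and 16.3% held CAGCTG, so a single match is common. The Igf1 start used by RefSeq lies 2846 bases inside the gene start that GENCODE M21 gives.

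Total counts per library ran from 5355691 to 6979851. The limit that a count of 0 allows (3 counts) was therefore 0.379 to 0.748 CPM, the count scaled to the TMM-adjusted library total, which is the scale of all levels here unless another is named. After 20 cycles of amplification reads are not independent molecules, so this limit and all counting intervals cover counting error only. Olig2 had 114, 97 and 21 counts in the Olig2 libraries, 6, 4 and 0 in the Olig3 libraries and 0 in all GFP libraries. Olig3 had 172, 113 and 597 counts in the Olig3 libraries and 0, 5 and 7 in the Olig2 libraries, against 13, 0 and 40 in the GFP libraries. Olig3 libraries 1 and 3 had the fewest detected genes (16188 and 14434, against 18184 to 21338 elsewhere). The 20 pan-ganglion cell markers, which include Rbpms, Thy1 and neurofilaments, held 0.0429% ± 0.012 of the counts in Olig2 libraries and 0.0317% ± 0.0102 in Olig3 libraries, against 0.178% ± 0.0713 in GFP libraries (SD, n = 3 each). In Olig3 library 3, 8 of the 20 were at 0, among them Rbpms, Thy1, Pou4f1, Pou4f2 and Slc17a6. The 16 rod genes held 13.1% ± 3.92, 11.8% ± 5.47 and 6.86% ± 1.44 in the Olig2, Olig3 and GFP groups.

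Of the 4 tested markers, none passed an adjusted p of 0.05 (edgeR quasi-likelihood test, Benjamini-Hochberg) in any of the 3 comparisons. In Olig2 against GFP, 0 of 4 passed where 0.0513% of the 15609 tested genes did. At an unadjusted p below 0.05 the count was again 0 of 4, against 4.68% of all genes, and the libraries of no marker were fully separated, against 16.8% of all genes. In Olig3 against GFP, 0 of 4 passed the adjusted threshold, against 0.205% of all genes. Eomes and Kcng4 were lower at an unadjusted p below 0.05 (12.1% of all genes in either direction). They were also the markers without overlap between the libraries (17.2% of all genes in either direction). Eomes had enough counts to be tested only with the GFP libraries, the group where it was highest. In Olig3 against Olig2, 0 of 4 passed the adjusted threshold (0.0384% of all genes) and 0 of 4 had an unadjusted p below 0.05 (5.12% of all genes). Igf1 alone had no overlap there, where 13.1% of all genes had none. The median fitted log2 change of the 4 was -1.56, -2.80 and -1.59 in the 3 comparisons, beside medians over all tested genes of -0.00047, -0.058 and -0.062. Comparisons with GFP share the same GFP libraries, so their values for a marker are not independent.

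**Figure D1:**
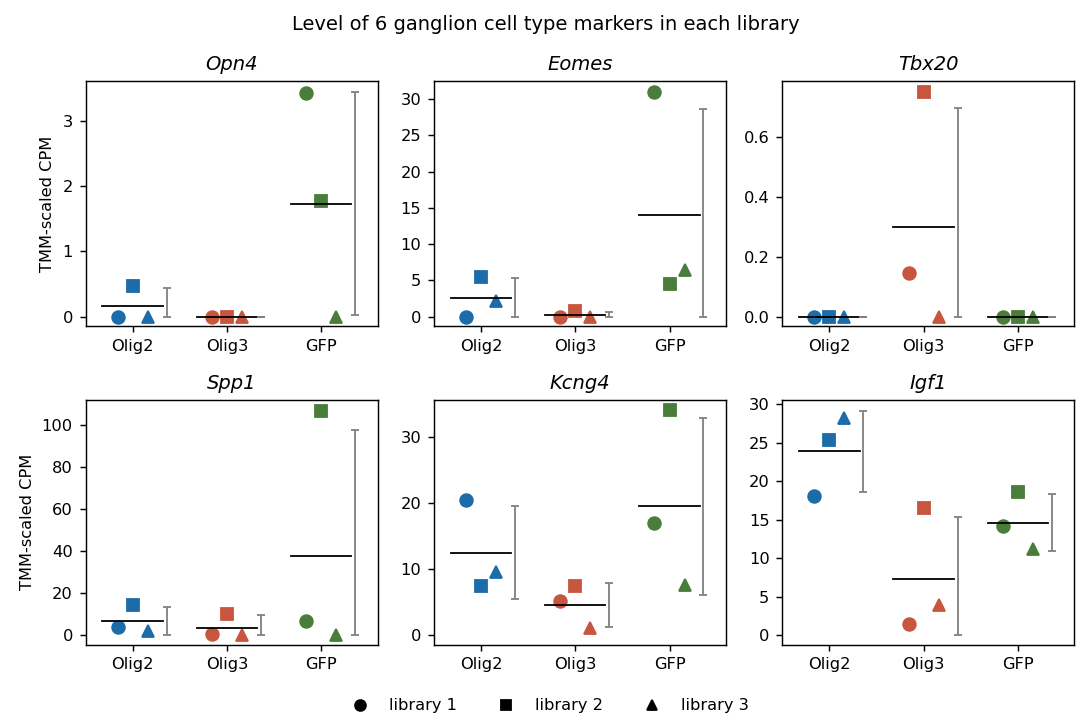
TMM-scaled CPM of each marker gene in the 3 libraries of the Olig2, Olig3 and GFP groups. Black lines are group means and grey bars are SD, drawn down to 0 where the SD exceeds the mean; Spp1 in GFP library 2 (107 CPM) and Eomes in GFP library 1 (31.0 CPM) lie far above the others of their group.

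Among the photosensitive types, Opn4 encodes melanopsin, the photopigment itself (chr14, 34590618 to 34600142, minus strand, GRCm38). It was counted 0, 2 and 0 times in the Olig2 libraries and 0 times in each Olig3 library, against 23, 14 and 0 times in the GFP libraries. That is 0.158 ± 0.274 CPM in Olig2 libraries and 0 CPM in Olig3 libraries, against 1.73 ± 1.71 CPM in GFP libraries (SD, n = 3 each). GFP libraries 1 and 2 held nearly all Opn4 reads, and GFP library 3 overlapped with both other groups at 0. Over the pooled counts, Olig2 was 14.1-fold lower than GFP, with a 95% counting interval of 3.63 to 121 for 2 against 37 counts. Olig3, without a count, was 9.84-fold lower than GFP if 3 counts over the group are taken as its limit. This value takes the 37 GFP counts as exact, so it is not a bound on the group difference. Over libraries, the two-sided exact permutation test gave p = 0.4 for both, and with 3 libraries on each side no p under 0.1 is possible. The gene lies opposite Gm49012, which had at most 2 counts in any library.

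Eomes (Tbr2) is a T-box transcription factor needed to form and keep the photosensitive ganglion cells in mice (chr9, 118478212 to 118486132, plus strand). Its counts were 0, 23 and 12 in the Olig2 libraries and 0, 3 and 0 in the Olig3 libraries, against 208, 36 and 48 in the GFP libraries. Means were 2.54 ± 2.75 CPM in the Olig2 group and 0.249 ± 0.432 CPM in the Olig3 group, against 14.0 ± 14.8 CPM in the GFP group (SD, n = 3 each). Every Olig3 library lay below every GFP library, whereas Olig2 library 2 at 5.46 CPM lay above GFP library 2 at 4.55 CPM. For Olig3 against GFP, the pooled counts were 77.6-fold lower (95% counting interval 26.3 to 379 for 3 against 292 counts). The fitted log2 change was -5.91 (SE 2.02), with unadjusted p = 0.0129 and adjusted p = 0.290 by edgeR, and the exact permutation p was 0.1. For Olig2 against GFP, the mean was 5.51-fold lower, with a log2 change of -2.47 (SE 1.66, 95% interval -6.10 to 1.16, adjusted p = 1 by edgeR). For Olig3 against Olig2, 3 against 35 counts gave a 12.2-fold lower pooled level (95% counting interval 3.86 to 62.2) and a log2 change of -3.44 (SE 1.87, adjusted p = 0.933 by edgeR). In a fit of only these groups Eomes had too few counts to be tested, so this fitted value exists only because the GFP libraries brought Eomes past the filter. The fits of Eomes against GFP carry the same limit, since GFP is the group where it was highest. GFP library 1 carried 208 of the 292 GFP counts, and without it the log2 change against GFP was -1.11 for Olig2 and -4.49 for Olig3. Both Olig3 libraries at 0 (1 and 3) were those with the fewest detected genes. Without them, Olig3 rests on 1 library and the log2 change against GFP was -4.17.

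Reads on Eomes cannot be separated from those of the antisense gene Gm33460, since the sources used here do not state whether the counting used strand. Gm33460 had 0, 11 and 12 counts in the Olig2 libraries and 0, 2 and 0 in the Olig3 libraries, against 58, 4 and 11 in the GFP libraries. Eomes is also a gene of T and natural killer cells, and the 14 genes of those cells held 0.00262 to 0.0129% of the counts in the Olig2 libraries and 0 to 0.000317% in the Olig3 libraries, against 0.000564 to 0.00493% in the GFP libraries. In GFP library 1, where Eomes was highest, Cd3d, Cd3e and Cd3g were at 0, Lck had 32 counts and Klrb1c had 1. In Olig2 library 1, where these genes had their highest share, Eomes was at 0 while Cd3g had 130 counts and Nkg7 had 309. Other genes of the list, Gzma, Gzmb and Ncr1, were at 0 in that library and in all GFP libraries. In Olig2 libraries 2 and 3, where Eomes had 23 and 12 counts, Gzma had 16 and 163, Gzmb 4 and 33 and Ncr1 9 and 18. The part of these cells in the Eomes values was not tested.

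Tbx20, the other T-box factor of the photosensitive types, acts beside Eomes in mice (chr9, 24718138 to 24774303, minus strand). It had 0 counts in every Olig2 library and 1, 3 and 0 in the Olig3 libraries, against 0 in every GFP library. With 4 reads in all 9 libraries, it was not detectable above the limit of 3 counts in any library, and no fold is given. Of the 15 other T-box genes, 4 had enough counts to be tested and none passed in any comparison. Mga averaged 127 ± 39.9 CPM in the Olig2 group and 89.2 ± 33.4 CPM in the Olig3 group, against 107 ± 25.5 CPM in the GFP group. Tbx2, a T-box repressor, averaged 30.6 ± 10.6, 27.9 ± 3.35 and 32.1 ± 4.67 CPM in the Olig2, Olig3 and GFP groups (SD, n = 3 each). Tbx3 and Tbx6 averaged 0.582 to 2.82 CPM over the 3 groups.

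The other genes of melanopsin signalling and of the photosensitive types were read from a list of 10, all tested, of which none passed an adjusted p of 0.05 by edgeR in any comparison. Adcyap1 encodes PACAP, the neuropeptide that these cells release in the brain. It had 2, 28 and 9 counts in the Olig2 libraries and 0, 6 and 0 in the Olig3 libraries, against 340, 8 and 207 in the GFP libraries. Its log2 change was -3.23 (SE 1.62, adjusted p = 1) for Olig2 and -5.86 (SE 1.88, unadjusted p = 0.00922, adjusted p = 0.267) for Olig3 against GFP by edgeR. Plcb4, the phospholipase C downstream of melanopsin, averaged 132 ± 22.9 CPM in the Olig2 group and 144 ± 62.4 CPM in the Olig3 group, against 138 ± 26.6 CPM in the GFP group. The G-protein subunits Gnaq and Gna11 had log2 changes of -0.38 and -0.27 for Olig2 and 0.38 and -0.30 for Olig3 against GFP. The median log2 change of the list was -0.17 in Olig2 against GFP, -0.56 in Olig3 against GFP and -1.75 in Olig3 against Olig2.

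Among the alpha types, Kcng4 encodes Kv6.4, a subunit that forms no channel alone and alters Kv2 potassium channels, and its locus is widely used to label alpha ganglion cells in mice (chr8, 119623854 to 119635680, minus strand). Its levels were 20.5, 7.36 and 9.47 CPM in the Olig2 libraries and 5.14, 7.48 and 1.02 CPM in the Olig3 libraries, against 17.0, 34.0 and 7.58 CPM in the GFP libraries. Every Olig3 library lay below every GFP library, by a margin as narrow as 7.48 against 7.58 CPM, and the Olig2 libraries overlapped with both other groups. The Olig3 mean of 4.55 ± 3.27 CPM was 4.29-fold lower than the GFP mean of 19.5 ± 13.4 CPM (SD, n = 3 each). The log2 change was -2.11 (SE 0.886, 95% interval -4.05 to -0.17), with unadjusted p = 0.0351, adjusted p = 0.369 by edgeR and exact permutation p = 0.1. The Olig2 mean of 12.4 ± 7.03 CPM was 1.57-fold lower than that of GFP, with a log2 change of -0.65 (SE 0.848, adjusted p = 1 by edgeR). Without GFP library 2 the log2 change was 0.022 for Olig2 and -1.44 (adjusted p = 0.710) for Olig3 against GFP by edgeR. For Olig3 against Olig2 the mean was 2.73-fold lower, with a log2 change of -1.46 (SE 0.872, adjusted p = 0.933 by edgeR).

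Of the 11 other Kv2 and silent Kv subunits, 5 were tested and none passed the adjusted threshold. Kcnv2, a silent subunit of photoreceptors, averaged 134 ± 32.2, 204 ± 85.6 and 91.6 ± 13.5 CPM in the Olig2, Olig3 and GFP groups. Its log2 change for Olig3 against GFP was 1.16 (SE 0.311, adjusted p = 0.184 by edgeR), opposite in sign to that of Kcng4. The mean rod gene share given above was also higher in both groups than in GFP, and its part in these values was not tested.

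Spp1 encodes osteopontin, a secreted phosphoprotein that marks alpha ganglion cells and is also a gene of activated microglia and macrophages (chr5, 104435118 to 104441050, plus strand). It was counted 28, 60 and 11 times in the Olig2 libraries and 2, 41 and 0 times in the Olig3 libraries, against 46, 844 and 0 times in the GFP libraries. Means were 6.73 ± 6.59 CPM in the Olig2 group and 3.51 ± 5.82 CPM in the Olig3 group, against 37.8 ± 59.7 CPM in the GFP group (SD, n = 3 each). GFP library 2 alone set the GFP mean, GFP library 3 was at 0, and all groups overlapped. The log2 change against GFP was -2.50 (SE 1.87, adjusted p = 1) for Olig2 and -3.48 (SE 1.96, adjusted p = 0.515) for Olig3 by edgeR, with exact permutation p = 0.7 for both. Without GFP library 2 these changes were 0.97 and 0.019, so their sign rests on that library. For Olig3 against Olig2 the log2 change was -0.98 (SE 1.85, adjusted p = 0.965 by edgeR). Gm42793, which overlaps the gene on the same strand, had 6 counts in GFP library 2 and 0 elsewhere.

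The 22 microglia and macrophage genes held 0.0101, 0.0401 and 0.0617% of the counts in the Olig2 libraries and 0.012, 0.0384 and 0.0216% in the Olig3 libraries, against 0.0154, 0.0988 and 0.0497% in the GFP libraries. GFP library 2, with the highest Spp1, also had the highest share, with 3522 counts of Lyz2 (lysozyme), 879 of Gpnmb, 846 of Ctss and 198 of Clec7a. Other genes of the list were not highest there: C1qa, C1qb and C1qc had 32, 93 and 104 counts in GFP library 2, against 123, 368 and 220 in GFP library 3, and Lpl had 4 against 251. Tmem119, a marker of resident microglia, was at 0 in that library, while P2ry12 had 40 counts and Cx3cr1 had 58. Olig2 library 3 had the second highest share with 11 counts of Spp1. The part of these cells in the Spp1 values was not tested.

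**Figure D2:**
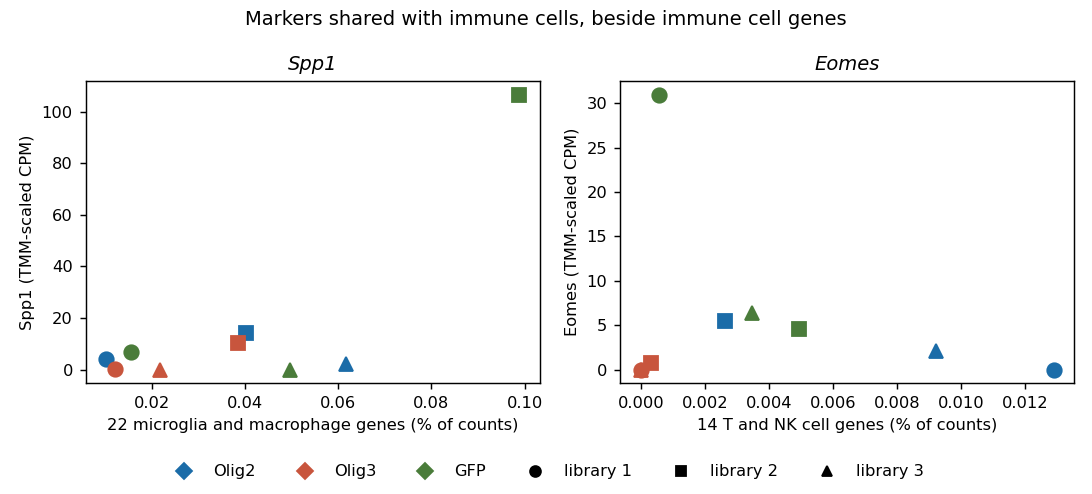
Spp1 (left) and Eomes (right) in TMM-scaled CPM against the share of counts held by 22 microglia and macrophage genes and by 14 T and natural killer cell genes, each point being a library of the Olig2, Olig3 or GFP group. GFP library 2 is highest for both Spp1 (107 CPM) and its immune genes (0.0988%), whereas GFP library 1 is highest for Eomes (31.0 CPM) with a T and natural killer share of 0.000564%.

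The receptors of osteopontin were read from a list of 10, of which 7 were tested and none passed the adjusted threshold. Cd44 averaged 16.8 ± 9.19 CPM in the Olig2 group and 13.8 ± 1.74 CPM in the Olig3 group, against 57.9 ± 35.4 CPM in the GFP group, and no library of either group reached the lowest GFP library (36.3 CPM). Of all tested genes, 16.8% in Olig2 and 17.2% in Olig3 had no overlap with GFP, in either direction. Its log2 change was -1.78 (SE 0.528, unadjusted p = 0.00571, adjusted p = 0.660) for Olig2 and -2.07 (SE 0.534, unadjusted p = 0.0023, adjusted p = 0.166) for Olig3 against GFP by edgeR. The integrin subunit Itga4 averaged 112 ± 36.9, 76.1 ± 18.1 and 147 ± 17.9 CPM in the Olig2, Olig3 and GFP groups (adjusted p = 0.247 for Olig3 against GFP by edgeR). Itgb1 and Itgb5 had log2 changes between -0.92 and -0.34 in both comparisons against GFP. Müller glia and astrocytes also express Cd44, and of their 10 markers only Vim (vimentin) passed the threshold. It was lower in Olig3 against GFP, by 2.99 on the log2 scale (SE 0.452, adjusted p = 0.0363 by edgeR), a call with the limits given below for other calls in that comparison. The part of glia in the Cd44 values was not tested.

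Igf1, insulin-like growth factor 1, is a secreted growth factor, grouped here with the alpha types, that microglia express as well (chr10, 87858265 to 87937042, plus strand). It was the only tested marker whose mean in the Olig2 group exceeded that of GFP. Its levels were 18.0, 25.4 and 28.2 CPM in the Olig2 libraries and 1.47, 16.5 and 3.95 CPM in the Olig3 libraries, against 14.2, 18.6 and 11.2 CPM in the GFP libraries. Olig2 library 1 lay just under GFP library 2, and each Olig3 library lay below each Olig2 library. The Olig2 mean of 23.9 ± 5.27 CPM was 1.63-fold that of GFP, 14.6 ± 3.73 CPM, with a log2 change of 0.70 (SE 0.773, 95% interval -0.98 to 2.39, adjusted p = 1 by edgeR; exact permutation p = 0.2). The Olig3 mean of 7.29 ± 8.03 CPM was 2.01-fold lower than that of GFP, with a log2 change of -1.02 (SE 0.785, adjusted p = 0.649 by edgeR). It was 3.28-fold lower than that of Olig2, with a log2 change of -1.73 (SE 0.797, 95% interval -3.47 to 0.01, unadjusted p = 0.0516, adjusted p = 0.933 by edgeR; exact permutation p = 0.1). Olig3 libraries 1 and 3, which had the fewest detected genes, also had the lowest Igf1. Without both of them, Olig3 rests on 1 library and the change against GFP was 0.18. Without Olig3 library 2, where Igf1 was highest in that group, the log2 change was -2.43 (adjusted p = 0.0917) against GFP and -3.14 (adjusted p = 0.0826) against Olig2 by edgeR. Igf1os, an antisense gene that overlaps Igf1, had 5 counts in GFP library 1 and 0 elsewhere.

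The other genes of the insulin-like growth factor system were read from a list of 14, of which 9 were tested, with none at an unadjusted p below 0.05 in any comparison. Igf1r, the receptor, averaged 94.1 ± 14.3 CPM in the Olig2 group and 114 ± 30 CPM in the Olig3 group, against 89.3 ± 7.50 CPM in the GFP group. The insulin receptor Insr averaged 82.1 ± 29.1, 129 ± 47.1 and 78.4 ± 30.8 CPM, and the adaptor Irs2 35.9 ± 13.8, 17.4 ± 15.3 and 30.4 ± 7.63 CPM, in the Olig2, Olig3 and GFP groups. Igfbp4, a binding protein that holds the ligands, averaged 17.5 ± 5.88, 11.8 ± 10.4 and 10.6 ± 8.34 CPM in the same order. Downstream, none of 16 genes of the PI3K and mTOR pathway passed the adjusted threshold. At an unadjusted p below 0.05, 1 was lower in Olig2 against GFP, while 1 was higher and 3 were lower in Olig3 against GFP. Of all genes, 4.68% and 12.1% had such a p in these comparisons, in either direction. Rheb, which activates mTOR, averaged 266 ± 37.2, 242 ± 39.2 and 321 ± 87.5 CPM, in the Olig2, Olig3 and GFP groups (SD, n = 3 each). Rps6, a ribosomal protein downstream of mTOR, averaged 179 ± 10.6, 159 ± 19.4 and 144 ± 15.1 CPM, and Rictor 137 ± 15.1, 179 ± 49.6 and 132 ± 31.1 CPM.

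**Figure D3:**
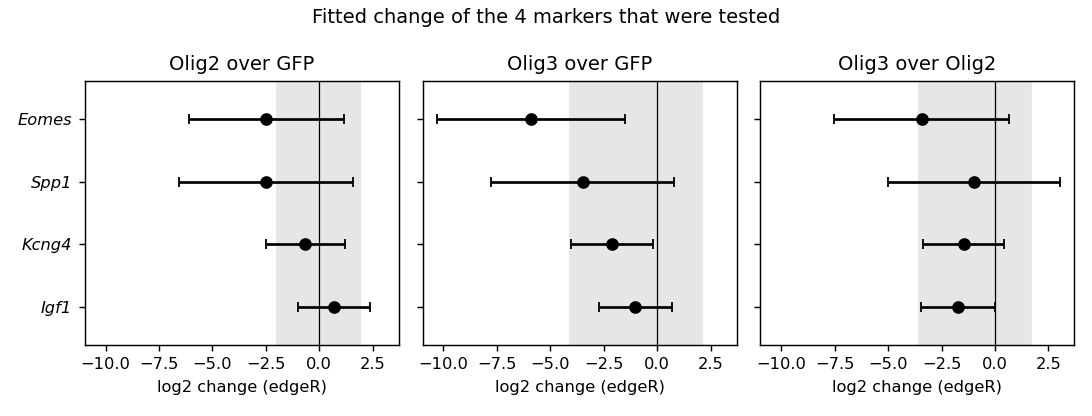
Fitted log2 change (edgeR) with its 95% interval for the 4 tested markers in Olig2 over GFP, Olig3 over GFP and Olig3 over Olig2, with the central 95% of all 15609 tested genes shaded. Eomes and Spp1 in Olig2 over GFP and Eomes in Olig3 over GFP (-5.91) lie left of the shaded range, and Igf1 in Olig2 over GFP (0.70) is the one point right of no change. Eomes had enough counts to be tested only with the GFP libraries, where it was highest.

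Levels per kilobase of exon allow the genes to be ranked within a group. In the Olig2 group the order was Spp1 (4.08 ± 4.0 CPM per kb), Kcng4 (3.27 ± 1.85), Igf1 (2.41 ± 0.532), Eomes (0.610 ± 0.662), Opn4 (0.0535 ± 0.0926) and Tbx20 (0). In the Olig3 group it was Spp1 (2.13 ± 3.53 CPM per kb), Kcng4 (1.19 ± 0.859), Igf1 (0.736 ± 0.811), Eomes (0.0600 ± 0.104), Tbx20 (0.0249 ± 0.033) and Opn4 (0). In the GFP group it was Spp1 (23.0 ± 36.2 CPM per kb), Kcng4 (5.13 ± 3.52), Eomes (3.36 ± 3.55), Igf1 (1.48 ± 0.376), Opn4 (0.585 ± 0.579) and Tbx20 (0). The ranges of neighbours over the 3 libraries overlapped or met at 0 throughout, except that the Igf1 levels of the Olig2 libraries all lay above the Eomes levels. Spp1 was the highest in library 2 alone of each group, so its first place rests on those libraries. By mean, the members grouped here with the alpha types held the first 3 places in the Olig2 and Olig3 groups. In the mean of the GFP group Eomes stood above Igf1. Microglia also express Spp1 and Igf1, so the order does not rank alpha over photosensitive cells.

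The markers were next given as counts per 10000 counts of the 20 pan-ganglion cell markers in each library, a description with no test. This sum is not a measure of ganglion cell RNA, since abundant genes weigh most in it. Nefm held 3790 of 14876 counts in GFP library 1 and 60 of 1266 in Olig3 library 3. Those 20 markers had 2108 to 2994 counts in the Olig2 libraries and 1266 to 2245 in the Olig3 libraries, against 7859 to 14876 in the GFP libraries. None of the 19 that were tested passed the adjusted threshold, and 6 in Olig2 and 7 in Olig3 were lower than GFP at an unadjusted p below 0.05. Of all tested genes, 4.68% in Olig2 and 12.1% in Olig3 had such a p against GFP, in either direction. The log2 change against GFP was positive for 3 of the 19 in Olig2 (Syt13, Chrna6 and Chrnb3). In Olig3 it was positive for 2 (Ebf3 and Pou4f1). The neurofilament gene Nefm averaged 64.3 ± 63.4, 65.7 ± 55.3 and 337 ± 199 CPM, and Gap43, a gene of growing axons, 34.2 ± 19.0, 9.29 ± 15.7 and 238 ± 146 CPM, in the Olig2, Olig3 and GFP groups. On the per-marker scale Igf1 stood at 465, 357 and 750 in the Olig2 libraries and 48.7, 294 and 213 in the Olig3 libraries, against 63.9, 187 and 79.0 in the GFP libraries. Every Olig2 library lay above every GFP library, as was the case for 58.3% of all tested genes on this scale, whose denominator was lower in every Olig2 library than in every GFP library. The median gene was 3.07 times as high in Olig2 as in GFP on this scale and 4.54 times as high in Olig3 as in GFP, and in CPM the Igf1 libraries of Olig2 and GFP overlapped. Kcng4 stood at 527, 104 and 251 in the Olig2 libraries and 170, 134 and 55.3 in the Olig3 libraries, against 76.6, 342 and 53.6 in the GFP libraries, so the separation of Olig3 from GFP seen in CPM was absent here. Eomes kept it, with 0, 13.4 and 0 in the Olig3 libraries against 140, 45.8 and 45.2 in the GFP libraries, while the Olig2 libraries stood at 0, 76.8 and 56.9. The Olig3 libraries at 0 were those with the fewest detected genes. In Olig3 against GFP, 1.26% of all tested genes were lower without overlap on this scale. Eomes was among the tested genes only through the GFP libraries, where it was highest. Spp1 averaged 118 ± 75.2, 64.3 ± 103 and 367 ± 609, and Opn4 2.23 ± 3.86, 0 and 11.1 ± 9.68, in the Olig2, Olig3 and GFP groups (SD, n = 3 each). Over the means, Igf1 was 4.76 times and Kcng4 1.87 times as high in Olig2 as in GFP, whereas Eomes was 0.58 times and Spp1 0.321 times. With 6 of the markers as denominator, Igf1 was 7.20 times, Kcng4 3.88 times and Spp1 0.537 times as high in Olig2 as in GFP, and Igf1 in Olig3 was 3.05 times instead of 1.69 times the GFP mean.

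**Figure D4:**
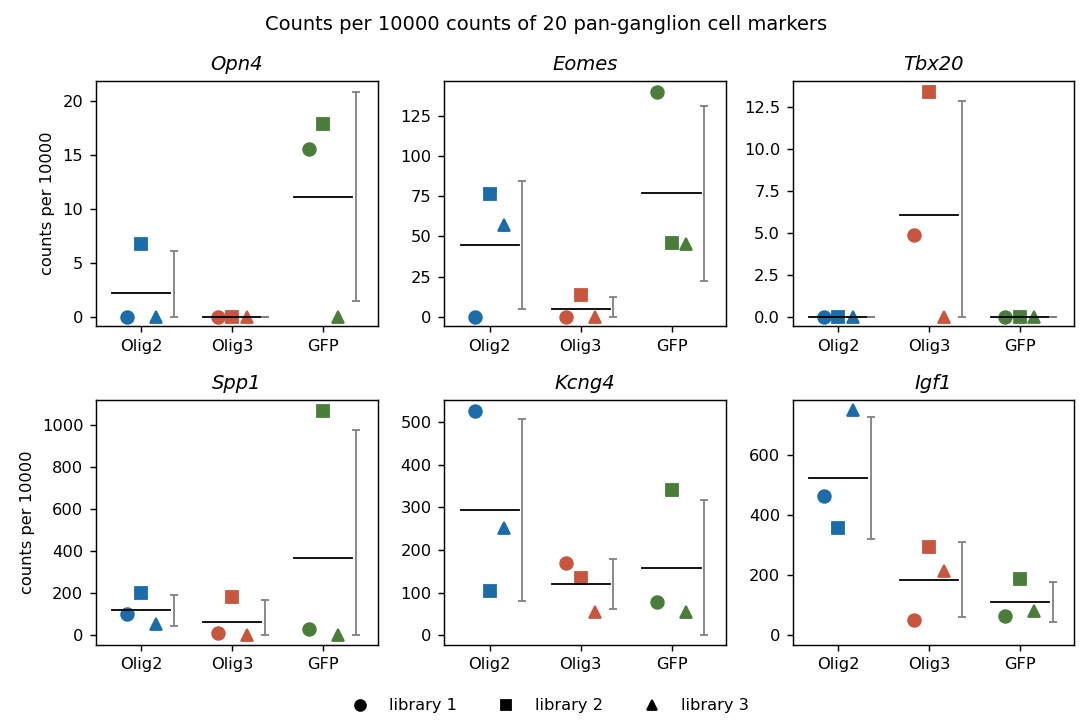
Counts of each marker gene per 10000 counts of the 20 pan-ganglion cell markers, by library, with group means (black) and SD (grey, drawn down to 0 where it exceeds the mean) for Olig2, Olig3 and GFP. Igf1 in the 3 Olig2 libraries (357 to 750) lies above all GFP libraries (63.9 to 187), as do 58.3% of all tested genes on this scale, and Eomes in the Olig3 libraries (0 to 13.4) lies below all GFP libraries (45.2 to 140).

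The genes with levels most like each tested marker were taken by Pearson's r of log2(CPM + 1) over the 9 libraries, which share groups and depth, so the values are descriptions. For Eomes these were Dctd (r = 0.984), Garnl3 (0.955) and Steap3 (0.951). Dctd had 0, 6 and 2 counts in the Olig2 libraries and 0, 1 and 0 in the Olig3 libraries, against 37, 13 and 16 in the GFP libraries. For Spp1 they were Rpusd2 (r = 0.955), Ewsr1 (0.954) and Stk36 (0.938), and for Kcng4 Pnpla8 (0.968), Chmp3 (0.959) and Rab7 (0.957). For Igf1 they were Pla2g12a (r = 0.974), Commd6 (0.961) and Ankfy1 (0.959). Without the library in which the marker was highest, r ran from 0.889 (Stk36 with Spp1) to 0.983 (Pla2g12a with Igf1).

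Markers of other ganglion cell types and of other retinal cells were read beside these genes. Of 13 markers of other ganglion cell types, 10 were tested and none passed. Penk, which encodes the opioid precursor proenkephalin, had 1, 107 and 23 counts in the Olig2 libraries and 1, 1 and 0 in the Olig3 libraries, against 616, 17 and 2159 in the GFP libraries (adjusted p = 0.108 for Olig3 against GFP by edgeR). Calb2 averaged 131 ± 52.6, 94.9 ± 33.0 and 140 ± 91.6 CPM, Jam2 72.9 ± 3.93, 111 ± 12.6 and 52.6 ± 29.6 CPM, and Cartpt 46.1 ± 27.3, 20.8 ± 21.1 and 33.1 ± 13.9 CPM, in the Olig2, Olig3 and GFP groups. Of the opsins other than Opn4, 4 of 7 were tested and none passed. Of 12 bipolar cell genes, Pcp2 rose in Olig2 against GFP (log2 change 1.95, SE 0.217, adjusted p = 0.0127 by edgeR), and Grm6, Pcp2 and Cabp5 rose in Olig3 against GFP (log2 changes of 2.12, 1.46 and 1.80, adjusted p = 0.0363 each). Of the 16 rod genes, Slc24a1 rose in Olig3 against GFP (log2 change 1.31, SE 0.217, adjusted p = 0.0363 by edgeR). These calls in Olig3 against GFP, and that of Vim, were lost in the fit of only this pair of groups, which called 0 genes of the table. They were lost in the same way with the replicate number as a block. They were also lost, again with 0 genes called, without any 1 of the GFP or Olig2 libraries or Olig3 library 1, whereas without Olig3 library 2 the count was 505 genes instead of 32. In Olig2 against GFP no gene passed without GFP library 1, GFP library 3 or Olig2 library 1. None of 11 amacrine cell genes and none of the 3 tested genes of vessels, pericytes and pigment epithelium passed in any comparison. Lens genes held 0.000474% ± 0.000233 of the counts in Olig2 libraries and 0.0224% ± 0.0181 in Olig3 libraries, against 0.197% ± 0.204 in GFP libraries, and their part in the marker values was not tested.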

How the data were processed

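The deposited table holds raw counts, which the authors made with FastQC, HISAT2 and HTSeq on mm10, per the submitters' processing notes. Tool versions, read filters and use of strand are not stated in the sources used here. Libraries were made from polyA RNA with the SMART-Seq HT kit, per the labels' protocols. Of 50764 genes, 29429 had a count and 50712 matched GENCODE M21.

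Differences were tested with edgeR 4.0.16 (R 4.3.3): TMM factors, filterByExpr (15609 genes), 1 quasi-likelihood model of group means over 9 libraries, and Benjamini-Hochberg adjustment. The members and lists were chosen with earlier results of these data known. Named genes are the members, the 3 genes most like each tested member (leaving out predicted genes), and from each list every gene past the threshold or otherwise up to 4 with the highest mean CPM. Not every gene the rule took is reported here. Gpnmb, Clec7a, Tmem119, P2ry12, Cx3cr1, Cd3d, Cd3e and Klrb1c, and C1qa, C1qc, Lpl, Gzma, Gzmb and Ncr1, were named after their values were seen. Single levels were compared by exact permutation. Folds are ratios of mean CPM, or of pooled counts with an exact interval where a group had 1 to 3 counts. The script was tested on simulated data with a smaller spread than here and large changes set only in well-counted genes. That run does not cover genes at the low counts of these markers. No pair of libraries agreed within counting noise, so none was merged (lowest chi-square per degree of freedom 31.8). Alternatives were other scaling factors, filters, DESeq2 1.42.0, fits of each pair of groups, a replicate block and leaving out libraries.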

Additional observations from a re-analysis of the deposited data

How the results depend on the processing

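Opn4 and Tbx20 had too few counts for a fit, so no scaling, filter or left-out library was tried on them. The number of markers past the threshold stayed 0 in Olig2 against GFP and Olig3 against Olig2 under every alternative run. In Olig3 against GFP it was 2 with no filter (Eomes, log2 change -5.94, adjusted p = 0.0251; Spp1, -3.53, adjusted p = 0.00238) and 1 with DESeq2 (Eomes, -6.02, adjusted p = 0.0222), and over all alternatives the adjusted p ran from 0.0222 to 1 for Eomes and from 0.00238 to 1 for Spp1; the cause was not tested. Over all genes these settings called 556 and 493 genes instead of 32, the fit of only this pair called 0, and leaving out Olig3 library 2 gave 505 here and 160 instead of 6 in Olig3 against Olig2. Of 208 alternative log2 changes, 198 kept their direction and side of the threshold.

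Leaving out 1 library at a time, the log2 change of Spp1 ran from -3.66 to 0.97 (Olig2 against GFP), -7.84 to 0.019 (Olig3 against GFP) and -5.34 to 0.19 (Olig3 against Olig2), and that of Kcng4 in Olig2 against GFP from -1.24 to 0.022. The sign turned without GFP library 2 or, between the factors, without Olig2 library 2. The settings without the 2 libraries with the fewest detected genes and without the 3 richest in Malat1 (Olig2 libraries 2 and 3, Olig3 library 2) were chosen after seeing the data. Without the first set Igf1 changed by 0.18 in Olig3 against GFP and Spp1 by 0.63 in Olig3 against Olig2, and without the second Kcng4 changed by 0.070 in Olig2 against GFP. Per count of 6 instead of 20 pan-ganglion cell markers, Kcng4 in Olig3 over GFP was 1.07 times instead of 0.761 times.

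Deviations from the group means had correlations from -0.0711 to 0.105 between same-numbered libraries, against -0.11 to 0.0777 between the others. The value of 0.105 was that of Olig2 library 2 with Olig3 library 2. With 3 libraries per group, these values cannot decide whether same-numbered libraries were handled together, which the labels do not state. With the replicate block 0 markers passed in each comparison, and the log2 change of Eomes in Olig3 against GFP was -6.90 (adjusted p = 0.366 by edgeR). The block moved the log2 change of Spp1 in Olig2 against GFP from -2.50 to -0.11. Over all genes the block moved the count in Olig3 against GFP to 0 and in Olig2 against GFP to 10.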
